A study of Mus musculus with 8 samples.

Results

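The nuclear genes of the mitochondrial respiratory chain and of ATP synthase were compared between CT26, a colon carcinoma line of BALB/c mice that seldom metastasises to the liver, and CT26-FL3, a derivative that often does. Members were all array genes named as subunits of complex I (Nduf), complex II (Sdh), complex III (Uqcr), complex IV (Cox4 to Cox8) or ATP synthase (Atp5), by the array's own name or by the platform's gene symbol. This rule found 137 probes for 94 of the 26853 gene symbols on the array, and 91 of the 94 are genes of the chain, the synthase or complex I assembly. The other 3 (Emc8, Dmac2l and Ino80dos) carry such a name only on the array or platform and are given apart. Selection for CT26-FL3 was done in mice by 3 passages through the liver, after which lesions were digested and the cells were cultured for a short time so that stromal cells were lost. Both lines were grown in high-glucose medium (4.5 g/L) with 10% serum, and 4 samples of each were hybridised to 1-colour arrays.

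Complexes I to IV pass electrons from NADH and succinate to oxygen, and complexes I, III and IV pump protons out of the mitochondrial matrix. ATP synthase lets the protons flow back through its membrane ring, which turns a rotor inside a catalytic head and makes ATP. A few subunits are encoded in mitochondrial DNA, while the genes described here lie in the nucleus, and their proteins are imported and fitted together with the help of assembly factors. Complex IV has tissue isoforms, so that muscle, testis or lung can replace a subunit that most cells share.

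A level is the log2 of a probe's background-subtracted intensity over the array's 75th percentile. Changes are CT26-FL3 minus CT26 on this scale, with the standard error (SE) and limma's p-value adjusted over the 15097 features tested, and a gene passed at an adjusted p under 0.05. Levels are not compared between genes, because probes differ in how brightly they bind. Of the 94 members, 89 had a probe above the detection limit on at least 4 arrays and were tested, and each of the 89 was above it on all 8 arrays. The p-values measure the spread between samples that the study calls independent without saying whether they were separate cultures, so it may be technical. Since RNA was measured in bulk, fewer cells with a transcript and less of it in each cell cannot be told apart.

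Most members that differed were lower in CT26-FL3, by small amounts. Of the 89 tested, 45 passed, 38 as lower and 7 as higher, where 49.5% of all features tested passed, 25.3% as lower and 24.1% as higher. The median change of the members was -0.15 (-9.59%), against -0.01 for all features tested. Fitted changes were below 0 in 68 of the 89, against 50.8% of all features. Every CT26-FL3 sample lay below every CT26 sample in 37 members (24.2% of all features) and above in 7 (23.2%). The largest falls came in the ATP synthase subunit gene Atp5k (-0.52), the complex I subunit genes Ndufb9 (-0.50) and Ndufb4 (-0.50), the complex IV subunit gene Ndufa4 (-0.47) and the succinate dehydrogenase flavoprotein gene Sdha (-0.41). A fall beyond 0.5 that passed was seen in 3 members, against 7.76% of all features. The muscle isoform gene Cox7a1 stood apart, 2.83-fold higher (1.50, SE 0.08, adjusted p = 1.6e-06), and the remaining 6 rises ranged from 0.16 to 0.51. In both lines replicates 1 and 2 form 1 array set and replicates 3 and 4 a second, by a number in the names of the deposited arrays. With the set as a block 37 fell and 6 rose, beside 25.3% and 24.5% of all features. Within replicates 1 and 2 alone 10 fell and 4 rose, beside 13.5% and 14.4% of all features. Within replicates 3 and 4 alone 3 fell and 3 rose, beside 13.5% and 14.2%. In neither set alone was the share of members that fell above that of all features. With each array centred on its median 25 fell, where 19.9% of all features fell. With the replicate numbers of the titles as a block 13 fell, where 17.2% of all features fell, a larger share than among the members.

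**Figure D1:**
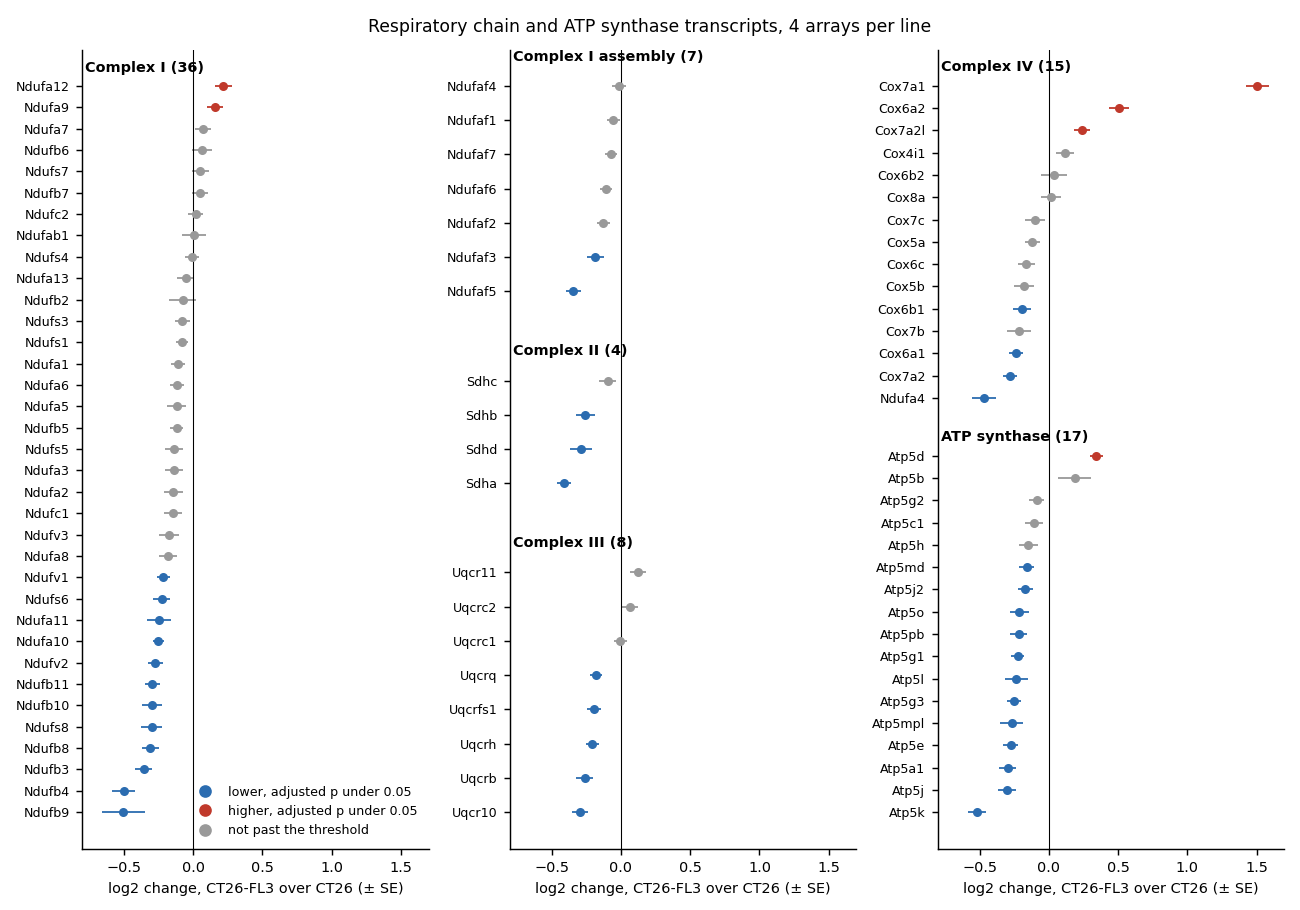
Log2 change of tested chain, synthase and assembly genes between the lines (horizontal axis, points with the SE, 4 arrays per line), by complex, with the number tested in brackets. Blue points passed the threshold as lower and red points as higher in CT26-FL3, and Cox7a1 at 1.50 lies far outside the range of the others.

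The promoters of 6 members are printed because these genes carry the contrasts described below: the opposed isoforms Cox7a1 and Cox7a2, the common isoform Cox6a1 of the other opposed pair, and the lower genes Atp5k, Sdha and Ndufb4. Each runs 5′ to 3′ from 250 bases before to 50 bases after the start of the gene, as RefSeq gives it on GRCm38.p6. Letters were searched on both strands for the site of nuclear respiratory factor 1 (NRF1, GCGC followed by any base and TGCGC), the core bound by ETS factors such as GABP (CCGGAAG) and the YY1 site (AAGATGGCG), all known from promoters of respiratory genes. Capitals mark the matches, which do not overlap one another.
Cox7a1 (chr7:30183921-30184220, plus strand): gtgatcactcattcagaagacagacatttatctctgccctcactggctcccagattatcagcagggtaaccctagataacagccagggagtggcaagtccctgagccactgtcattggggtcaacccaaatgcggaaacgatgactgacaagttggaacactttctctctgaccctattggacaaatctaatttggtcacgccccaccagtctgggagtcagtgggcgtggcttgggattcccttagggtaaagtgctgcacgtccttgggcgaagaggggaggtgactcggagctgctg
Cox7a2 (chr9:79759804-79760103, minus strand): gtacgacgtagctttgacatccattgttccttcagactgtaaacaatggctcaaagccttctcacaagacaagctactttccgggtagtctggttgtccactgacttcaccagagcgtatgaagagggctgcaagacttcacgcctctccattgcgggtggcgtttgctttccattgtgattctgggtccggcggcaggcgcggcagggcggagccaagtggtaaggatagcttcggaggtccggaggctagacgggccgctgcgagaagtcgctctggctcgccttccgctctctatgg
Cox6a1 (chr5:115348909-115349208, minus strand): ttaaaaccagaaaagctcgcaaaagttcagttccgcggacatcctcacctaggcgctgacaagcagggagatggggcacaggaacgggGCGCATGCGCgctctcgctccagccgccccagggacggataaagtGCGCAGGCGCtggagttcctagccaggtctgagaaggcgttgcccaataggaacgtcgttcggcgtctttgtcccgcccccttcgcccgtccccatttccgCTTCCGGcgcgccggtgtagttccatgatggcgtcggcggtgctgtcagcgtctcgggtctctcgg
Atp5k (chr5:108434350-108434649, minus strand): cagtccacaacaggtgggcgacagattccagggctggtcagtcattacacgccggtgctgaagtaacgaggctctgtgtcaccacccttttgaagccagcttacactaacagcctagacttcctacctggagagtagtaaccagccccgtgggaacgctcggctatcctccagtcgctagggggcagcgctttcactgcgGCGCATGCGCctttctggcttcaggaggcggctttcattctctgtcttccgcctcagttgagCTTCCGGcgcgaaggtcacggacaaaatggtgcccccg
Sdha (chr13:74350191-74350490, minus strand): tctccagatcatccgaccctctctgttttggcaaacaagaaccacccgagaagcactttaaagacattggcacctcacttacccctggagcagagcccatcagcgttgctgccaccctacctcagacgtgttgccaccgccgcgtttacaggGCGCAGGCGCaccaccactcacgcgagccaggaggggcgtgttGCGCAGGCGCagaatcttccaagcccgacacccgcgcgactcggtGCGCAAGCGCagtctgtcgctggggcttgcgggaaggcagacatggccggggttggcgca
Ndufb4 (chr16:37654319-37654618, minus strand): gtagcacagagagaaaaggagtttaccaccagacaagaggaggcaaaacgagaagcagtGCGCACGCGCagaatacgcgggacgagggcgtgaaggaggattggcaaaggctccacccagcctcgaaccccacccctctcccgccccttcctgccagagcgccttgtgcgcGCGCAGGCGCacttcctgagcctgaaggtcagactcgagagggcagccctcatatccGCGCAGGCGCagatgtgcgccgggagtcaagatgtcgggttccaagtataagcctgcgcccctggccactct
The Cox7a1 and Cox7a2 windows held none of these letters. Cox6a1 held 2 NRF1 matches and 1 ETS match, Atp5k held 1 of each, and Sdha and Ndufb4 held 3 NRF1 matches each. Promoters were found for 75 of the 91 genes. NRF1 letters were present in 19 of these 75 (25.3%), against 5.19% of the 27025 genes in the table. ETS letters were present in 18 (24%, against 9.93%) and YY1 letters in 7 (9.33%, against 1.64%). Among the 33 lower genes with a promoter, 10 had NRF1 letters, 11 ETS letters and 3 YY1 letters, and among the 35 that did not pass the numbers were 9, 7 and 3. Of the 5 higher genes, 1 had a YY1 match and none had NRF1 or ETS letters, and the remaining 2 promoters belong to genes that were not tested. A match describes these windows only, and their base composition was not matched to that of the other promoters.

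Complex I takes electrons from NADH through a chain of iron-sulphur clusters to ubiquinone. All 36 of its subunit genes matched on the array were tested. In CT26-FL3 12 were lower (33.3%, against 25.3% of all features), 2 were higher (5.56%, against 24.1%) and 22 did not pass. The median change was -0.13. Falls were more frequent among the Ndufb genes, whose products lie in the membrane arm, than among the Ndufa genes. Of the 10 Ndufb genes, 6 fell (60%), none rose and the median was -0.30. Of the 13 Ndufa genes, counting Ndufab1, 2 fell (15.4%), 2 rose (15.4%) and 9 did not pass, with a median of -0.12. The difference between these families was not tested.

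Ndufb4 had levels of 3.97, 4.04, 3.87 and 4.03 in the CT26 samples and of 3.43, 3.61, 3.59 and 3.28 in the CT26-FL3 samples, here and below in the order of their replicate numbers. Every CT26-FL3 sample lay below every CT26 sample, and the change was -0.50 (SE 0.08, adjusted p = 0.00104). Ndufb9, another membrane-arm subunit gene, read 6.19, 6.17, 6.25 and 6.17 in CT26 and 5.17, 5.87, 5.95 and 5.78 in CT26-FL3. Here too the lines did not overlap, but CT26-FL3 replicate 1 lay well below its own group. The change of -0.50 (SE 0.16, adjusted p = 0.0249) was -0.33 without that replicate (adjusted p = 0.00237). Its call was lost in 6 of the 23 alternatives tried, among them the fits that leave out CT26 replicate 1 (adjusted p = 0.0515) or CT26 replicate 3 (adjusted p = 0.0582). The remaining falls of the family were Ndufb3 (-0.36), Ndufb8 (-0.31), Ndufb10 (-0.30) and Ndufb11 (-0.29), with adjusted p from 0.00127 to 0.00874, and in each of these 4 genes the lines did not overlap.

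The 7 core subunits tested carry the flavin and the iron-sulphur clusters of the peripheral arm. Of these, 3 fell (42.9%, against 25.3% of all features). They were Ndufv1 (-0.21, adjusted p = 0.00557), which binds NADH and flavin, Ndufv2 (-0.27, adjusted p = 0.00293) and Ndufs8 (-0.30, adjusted p = 0.00995). Both Ndufv2 and Ndufs8 hold iron-sulphur clusters. Ndufv2 read 3.25, 3.25, 3.19 and 3.22 in CT26 and 2.85, 3.00, 3.06 and 2.93 in CT26-FL3, with all CT26-FL3 samples below all CT26 samples. Core genes that did not pass included Ndufs1, Ndufs3 and Ndufs7. Their changes were -0.08 for Ndufs1 (95% interval -0.17 to 0.02), -0.08 for Ndufs3 (-0.20 to 0.05) and 0.05 for Ndufs7 (-0.09 to 0.20), which with Ndufs8 belongs to the module that reduces ubiquinone.

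The 2 higher complex I genes were Ndufa12, an accessory subunit of the peripheral arm, and Ndufa9, which sits near the joint of both arms. Ndufa12 read 4.96, 4.85, 4.88 and 4.93 in CT26 and 5.03, 5.26, 5.16 and 5.05 in CT26-FL3, a rise of 0.22 (SE 0.06, adjusted p = 0.0161). Levels of Ndufa9 were 4.66, 4.67, 4.54 and 4.67 in CT26 and 4.77, 4.81, 4.90 and 4.70 in CT26-FL3, a rise of 0.16 (SE 0.06, adjusted p = 0.0449). In both genes the lowest CT26-FL3 sample was above the highest CT26 sample. The Ndufa9 call was lost under 15 of the 23 alternatives. Ndufa10, an accessory subunit gene that fell, ranged from 3.79 to 3.82 in CT26 and from 3.54 to 3.58 in CT26-FL3 (change -0.25, adjusted p = 0.000603).

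Assembly factors of complex I follow the same naming, and 2 of the 7 tested fell while the other 5 did not pass (median -0.11). The share that fell, 28.6%, was near the 25.3% of all features. Ndufaf5, which modifies the core subunit Ndufs7, read 0.33, 0.24, 0.31 and 0.30 in CT26 and -0.15, 0.06, -0.03 and -0.09 in CT26-FL3. All CT26-FL3 samples were below all CT26 samples, and the change was -0.34 (SE 0.05, adjusted p = 0.000932). Ndufaf3 fell by 0.18 (adjusted p = 0.0371), with 1 CT26 sample inside the CT26-FL3 range, and its call was lost in 13 of the 23 alternatives.

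Complex II, succinate dehydrogenase, links the citric acid cycle to the chain and is the only one of the complexes with no subunit encoded in mitochondrial DNA. Its 4 subunit genes had a median change of -0.27, and 3 of them fell (75%, against 25.3% of all features). Sdha, the catalytic flavoprotein, had levels of 2.84, 2.84, 2.71 and 2.71 in CT26 and of 2.41, 2.35, 2.35 and 2.34 in CT26-FL3. The lines were well apart, and the change was -0.41 (-24.9%, SE 0.05, adjusted p = 0.000171). A second bright Sdha probe gave -0.33.

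The iron-sulphur subunit gene Sdhb read 5.06, 5.01, 4.96 and 4.89 in CT26 and 4.73, 4.81, 4.79 and 4.56 in CT26-FL3 (change -0.26, adjusted p = 0.0127). Sdhd, 1 of the pair of membrane anchors, was at 4.79, 4.67, 4.44 and 4.59 in CT26 and at 4.34, 4.39, 4.36 and 4.25 in CT26-FL3 (change -0.29, adjusted p = 0.0127). In neither gene did the lines overlap. For Sdhc, the other anchor, the lines overlapped, with a change of -0.10 (95% interval -0.23 to 0.04, adjusted p = 0.217). Of the 23 alternatives, 4 lost the Sdhb call and 3 the Sdhd call. For both genes these included the fit without the filter on dim probes (adjusted p = 0.0512 and 0.0503). Sdha kept its call under all 23 alternatives.

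Complex III passes electrons from ubiquinol to cytochrome c. Among its 8 nuclear genes matched by the rule, 5 fell (62.5%), none rose and 3 did not pass, with a median of -0.19. Among all features 25.3% fell and 24.1% rose. The 5 that fell were the Rieske iron-sulphur protein gene Uqcrfs1 (-0.20, adjusted p = 0.00965) and the small subunit genes Uqcr10 (-0.29, adjusted p = 0.00269), Uqcrb (-0.26, adjusted p = 0.0079), Uqcrh (-0.21, adjusted p = 0.00545) and Uqcrq (-0.18, adjusted p = 0.00779). Uqcr10 read 5.57, 5.50, 5.53 and 5.46 in CT26 and 5.18, 5.28, 5.31 and 5.10 in CT26-FL3. In each of the 5 genes every CT26-FL3 sample was below every CT26 sample, as in 24.2% of all features. The large core proteins were not called, at -0.01 for Uqcrc1 (95% interval -0.12 to 0.11) and 0.06 for Uqcrc2 (-0.07 to 0.20), nor was the small subunit gene Uqcr11 (0.12, adjusted p = 0.101). Cyc1, the cytochrome c1 gene of this complex, lies outside the name rule and fell by 0.17 (adjusted p = 0.0266); it was chosen after its value was seen. A second, much dimmer Uqcrq probe differed by 0.19 the other way without passing, and the mean of both probes gave 0.01 (adjusted p = 0.924).

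Complex IV, cytochrome c oxidase, had 19 genes on the array, counting Ndufa4, which was long listed with complex I and is a subunit of complex IV. Of the 15 tested, 4 fell, 3 rose and 8 did not pass (median -0.12). These shares, 26.7% lower and 20% higher, were near those of all features. In the subunit 7a and 6a pairs the muscle form rose while the common form fell. The subunit 4 gene Cox4i1 (0.12, 95% interval -0.03 to 0.27), Cox5a (-0.12) and Cox5b (-0.18) did not pass. Ndufa4 had levels of 5.00, 5.01, 4.93 and 5.02 in CT26 and of 4.48, 4.53, 4.76 and 4.32 in CT26-FL3, with no overlap and a change of -0.47 (SE 0.09, adjusted p = 0.00211).

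Cox7a1, the heart and skeletal muscle isoform of subunit 7a, gave intensities of 137, 193, 127 and 115 units in CT26 and of 348, 390.3, 413 and 349 in CT26-FL3, above detection limits of 16.9 to 23.2 units. As levels these were -2.63, -2.58, -2.81 and -2.81 in CT26 and -1.23, -1.11, -1.10 and -1.38 in CT26-FL3. The lines were far apart, and the change was 1.50 in all samples, 1.44 in replicates 1 and 2 and 1.57 in replicates 3 and 4. With a constant of 50 added before the logarithm it was 1.24. A rise above 0.5 that passed was seen in 2 members, Cox7a1 and Cox6a2, and in 8.73% of all features.

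Its counterpart Cox7a2, the isoform most tissues use, read 4.75, 4.76, 4.82 and 4.81 in CT26 and 4.49, 4.52, 4.58 and 4.41 in CT26-FL3. It fell by 0.28 (a change of -17.8%, SE 0.05, adjusted p = 0.00155), with no overlap of the lines. The related gene Cox7a2l, whose product joins complexes III and IV into supercomplexes, rose by 0.24 (SE 0.06, adjusted p = 0.00659). Its levels were 3.59, 3.59, 3.51 and 3.61 in CT26 and 3.78, 3.83, 3.93 and 3.72 in CT26-FL3, also without overlap.

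Cox6a2, the muscle isoform of subunit 6a, was dim in both lines, at 74.0, 103, 70.7 and 79.4 intensity units in CT26 and 103, 111, 111 and 107 in CT26-FL3. Its levels of -3.52, -3.49, -3.65 and -3.35 in CT26 and -2.99, -2.93, -2.99 and -3.08 in CT26-FL3 did not overlap, and the unscaled intensities only just failed to overlap. The change was 0.51 (1.42-fold, SE 0.07, adjusted p = 0.000374) and 0.35 with the constant of 50. The common form Cox6a1 read 8.20, 8.14, 8.17 and 8.19 in CT26 and 7.98, 7.98, 7.98 and 7.82 in CT26-FL3, all lower than in CT26 (change -0.24, SE 0.05, adjusted p = 0.00424). Cox6a1 was among the brightest members, with intensities up to 325801 units, and saturation of its spots was not checked.

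In subunit 6b the common form Cox6b1 fell by 0.19 (adjusted p = 0.0387), a call lost in 12 of the 23 alternatives, while the testis form Cox6b2 did not pass (0.04, 95% interval -0.18 to 0.26). Of subunits 7b, 7c, 6c and 8a, the common genes Cox7b (-0.21, adjusted p = 0.072), Cox7c (-0.10), Cox6c (-0.16) and Cox8a (0.01) did not pass. The lung isoform gene Cox4i2, the testis genes Cox7b2 and Cox8c and the muscle gene Cox8b were not above the detection limit on any array, so no change is given for them. Of the muscle and testis isoforms, 2 rose, 1 did not pass and 3 were not detected.

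**Figure D2:**
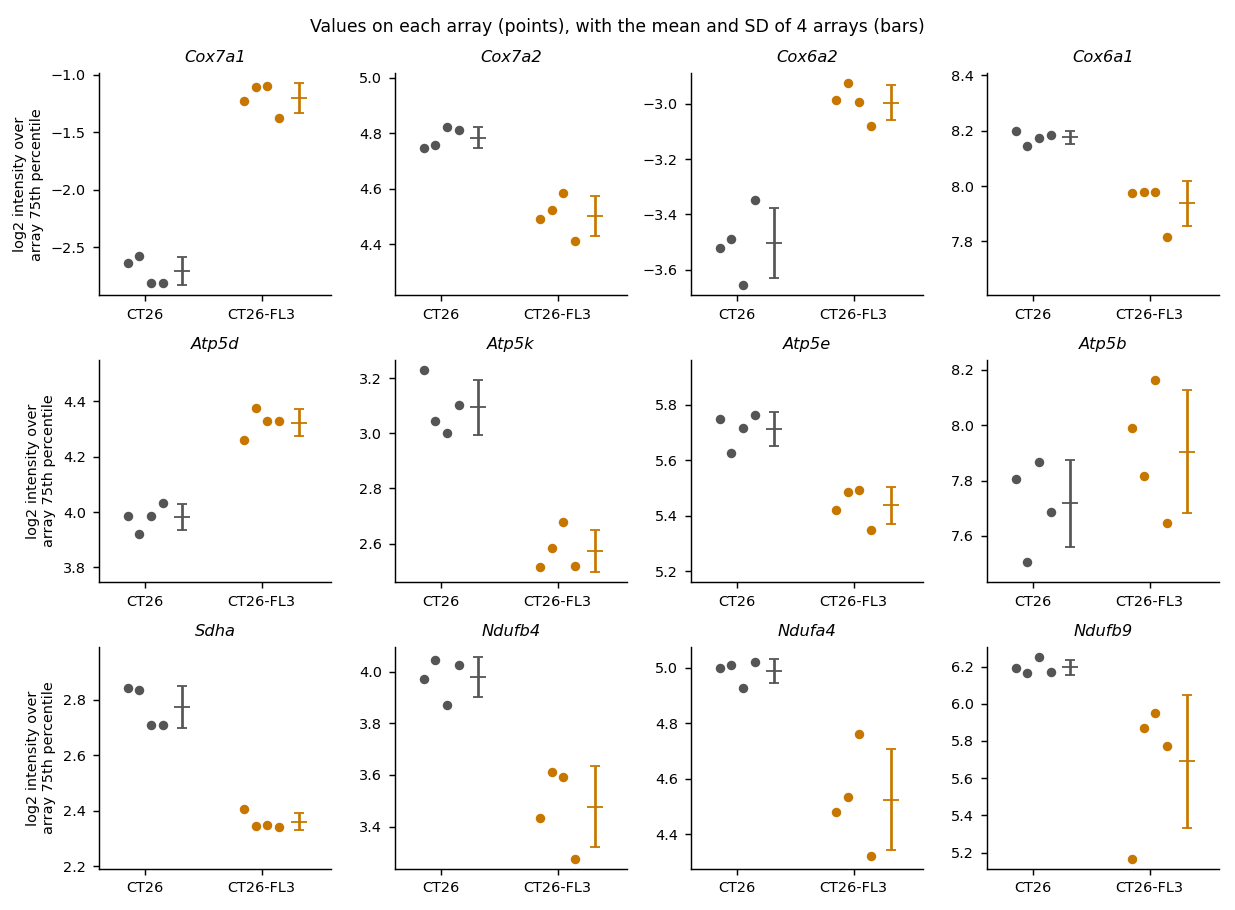
Levels on each of the 8 arrays (points, replicates 1 to 4 from left to right within each line) for 12 members, with the mean and SD of the 4 arrays beside them; each panel has its own vertical axis. Cox7a1, Cox6a2 and Atp5d are higher in CT26-FL3 with no overlap, Atp5b overlaps, and the other 8 are lower with no overlap.

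ATP synthase, or complex V, had the most falls for its size after complex II. Its 17 genes had a median change of -0.22, with 12 lower in CT26-FL3 (70.6%), 1 higher (5.88%) and 4 that did not pass. Among all features 25.3% were lower and 24.1% higher. All 5 genes of small membrane subunits fell. They were Atp5k (subunit e, -0.52), Atp5mpl (-0.27), Atp5l (subunit g, -0.24), Atp5j2 (subunit f, -0.17) and Atp5md (-0.16), whose products include those that hold synthase dimers together. The lines overlapped for Atp5mpl, Atp5l and Atp5md, and adjusted p ranged from 0.0248 to 0.0406 over the 4 genes other than Atp5k. Of the 23 alternatives, 9 lost the call of Atp5mpl, 14 that of Atp5l, 12 that of Atp5j2 and 15 that of Atp5md. Atp5k had levels of 3.23, 3.04, 3.00 and 3.10 in CT26 and of 2.51, 2.58, 2.68 and 2.52 in CT26-FL3. Every CT26-FL3 sample was below every CT26 sample. The change was -0.52 on the log2 scale (SE 0.06, adjusted p = 0.000193), with values of -0.59 in replicates 1 and 2 and -0.45 in replicates 3 and 4.

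In the peripheral stalk, which holds the catalytic head still, 3 of 4 genes fell (75%, against 25.3% of all features). They were Atp5j (-0.30, adjusted p = 0.0049), Atp5pb (-0.22, adjusted p = 0.0181) and Atp5o (-0.21, adjusted p = 0.0306). Atp5h did not pass (-0.15, adjusted p = 0.107). The lines overlapped for Atp5pb, and the Atp5o call was lost in 11 of the 23 alternatives. The c ring, through which the protons pass, is built from 1 protein encoded by 3 genes. Atp5g1 (-0.23, adjusted p = 0.00511) and Atp5g3 (-0.25, adjusted p = 0.00306) fell, and Atp5g2 did not pass (-0.09, 95% interval -0.21 to 0.04).

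The 5 genes of the catalytic head and its rotor moved both ways. Atp5a1, the alpha subunit gene, read 7.10, 6.82, 6.91 and 6.96 in CT26 and 6.60, 6.65, 6.70 and 6.65 in CT26-FL3, a change of -0.30 (SE 0.06, adjusted p = 0.00417). Its partner Atp5b, the beta subunit gene, read 7.81, 7.51, 7.87 and 7.69 in CT26 and 7.99, 7.81, 8.16 and 7.65 in CT26-FL3. Those values overlapped, and the change of 0.19 did not pass (95% interval -0.09 to 0.46, adjusted p = 0.237). The other two Atp5b probes, both dimmer, gave 0.35 (adjusted p = 0.000455 over kept probes) and 0.29 (adjusted p = 0.00314), and the mean of the 3 probes rose by 0.28 (adjusted p = 0.00768). Saturation of the brightest probe was not checked.

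The small rotor subunits went opposite ways. Atp5d (delta) had levels of 3.98, 3.92, 3.99 and 4.03 in CT26 and of 4.26, 4.38, 4.33 and 4.33 in CT26-FL3, a rise of 0.34 (1.27-fold, SE 0.05, adjusted p = 0.000316). Atp5e (epsilon) read 5.75, 5.63, 5.72 and 5.76 in CT26 and 5.42, 5.49, 5.49 and 5.35 in CT26-FL3, a fall of 0.28 (SE 0.05, adjusted p = 0.00238). Neither gene's lines overlapped. The gamma subunit gene Atp5c1 did not pass (-0.11, adjusted p = 0.199), and neither did Atpif1, the synthase inhibitor, which lies outside the name rule (-0.07, adjusted p = 0.362).

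Of the members with another annotation, Dmac2l, which the array calls Atp5s and which is also known as coupling factor B, rose by 0.37 (SE 0.05, adjusted p = 0.000445). Its levels were -0.97, -0.87, -0.98 and -0.98 in CT26 and -0.60, -0.51, -0.55 and -0.67 in CT26-FL3, with no overlap. Emc8, a neighbour of Cox4i1 that works in the endoplasmic reticulum, did not pass (0.15, adjusted p = 0.0935), and Ino80dos was above the limit on 1 array only.

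The median level of the 89 members relative to the CT26 mean was also taken on each array. It was 0.03, 0.02, -0.02 and -0.01 for CT26 and -0.20, -0.08, -0.09 and -0.21 for CT26-FL3. All 4 CT26-FL3 arrays were below all 4 CT26 arrays, and replicates 2 and 3 were nearer to CT26 than replicates 1 and 4. The same medians over all features lay between -0.03 and 0.03 and overlapped. Most members are bright: when the features tested were split by brightness into 10 equal groups, 54 of the 89 were in the brightest. In that group 25 of the 54 members were lower and 2 higher, beside 28.6% lower and 19.6% higher among its other 1456 features. Their median changes were -0.16 and -0.03.

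**Figure D3:**
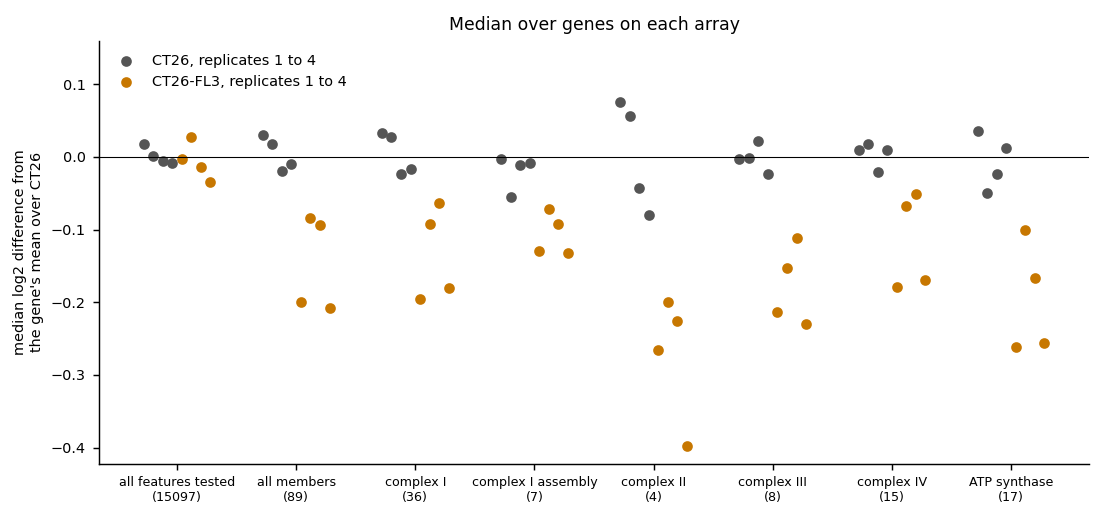
Median over genes of the log2 difference from each gene's CT26 mean (vertical axis) on each array, for all features tested, all members and each complex, with replicates 1 to 4 of each line from left to right. In each complex the 4 CT26-FL3 arrays lie below the 4 CT26 arrays, while the medians of all features overlap.

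Other mitochondrial genes were counted in lists of related function. Mitochondrial ribosomal proteins serve to translate the few proteins made inside mitochondria. Of 78 genes for them, 42 fell (53.8%), 6 rose (7.69%) and 30 did not pass (median -0.18), where 25.3% of all features fell and 24.1% rose. The falls were led by Mrpl41 (-0.63), Mrpl18 (-0.48) and Mrpl48 (-0.43). Among 44 assembly factors of the complexes outside the name rule, 16 fell (36.4%), 3 rose (6.82%) and 25 did not pass (median -0.08). The largest changes among these factors were in Ecsit (-0.48), which serves complex I, Coa3 (-0.46), which serves complex IV, and Uqcc2 (-0.45), which serves complex III.

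Enzymes that feed the chain were mixed. Of 23 genes of pyruvate dehydrogenase, its regulators and the citric acid cycle, 8 fell (34.8%), 5 rose (21.7%) and 10 did not pass. The median change was -0.08, and among all features 25.3% fell and 24.1% rose. Pcx, which makes oxaloacetate from pyruvate, fell by 0.88, the 2-oxoglutarate dehydrogenase gene Ogdh fell by 0.42 and the pyruvate dehydrogenase phosphatase gene Pdp1 rose by 0.36. Of 10 genes of ubiquinone synthesis, Coq5 fell by 0.36 (10% of the list), Coq9 rose by 0.19 (10%) and 8 did not pass. In a list of 10 electron carriers and ubiquinone-linked enzymes, 2 fell (20%), 2 rose (20%) and 6 did not pass. Both lists had smaller shares in each direction than all features. Among the carriers, Sqor (sulphide oxidation, 0.62) and the cytochrome c gene Cycs (0.27) were higher and Etfdh (fatty acid oxidation, -0.28) was lower. The carrier list also held the aldehyde oxidase gene Aox1, which is no part of the chain.

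Of 23 markers of mitochondrial mass and membranes, 4 fell (17.4%), 5 rose (21.7%) and 14 did not pass (median 0.05). Among all features 25.3% fell and 24.1% rose. The difference between these markers and the members was not tested. The falls included the fusion gene Mfn1 (-0.34), the prohibitin gene Phb (-0.32) and the import receptor gene Tomm22 (-0.26). Of 21 regulators of mitochondrial gene expression, 3 fell (14.3%), 6 rose (28.6%) and 12 did not pass (median 0.07). Ppargc1a, a coactivator of respiratory genes, fell by 0.27, while the mitochondrial helicase gene Twnk (0.38) and the mitochondrial transcription elongation factor gene Tefm (0.23) rose. Of the factors whose letters were searched in the promoters, named here after their values were seen, Nrf1 rose by 0.14 (adjusted p = 0.0269), the GABP subunit gene Gabpa rose by 0.18 (adjusted p = 0.0123) and Yy1 fell by 0.16 (adjusted p = 0.0317). The 3 probes that the array names ND4L, CYTB and COX2, after subunits encoded in mitochondrial DNA, did not pass, with changes of 0.02, 0.18 and 0.06.

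**Figure D4:**
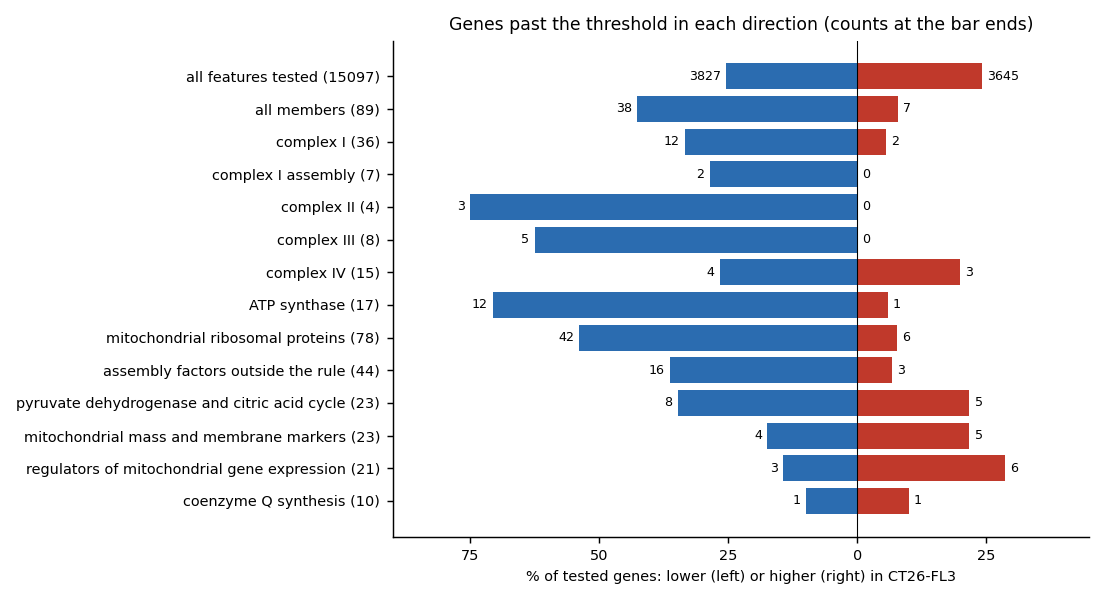
Percent of the tested genes of each list (number in brackets) that passed as lower (bars to the left) or higher (bars to the right) in CT26-FL3, with counts at the bar ends. ATP synthase, complex II, complex III and the mitochondrial ribosomal proteins have 70.6%, 75%, 62.5% and 53.8% of their genes lower, where 25.3% of all features are lower and 24.1% higher.

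Both lines were checked against markers of colon epithelium and of cells that a liver lesion could hold. Of 12 epithelial markers, 5 were above the limit on all arrays of each line, and Krt19, Cdh1, Epcam, Vil1 and Cdx1 were above it on none. The defining markers Alb (hepatocyte), Ptprc and Adgre1 (macrophage), Pecam1 and Cdh5 (endothelium) and Cd3d and Ms4a1 (lymphocyte) were also above it on no array. Other markers of these lists were detected: above the limit on all arrays of CT26 and of CT26-FL3 were 2 and 3 of 9 hepatocyte markers, 5 and 5 of 11 macrophage markers, 8 and 8 of 11 fibroblast markers, 3 and 4 of 9 endothelial markers, and 3 and 4 of 9 lymphocyte markers. Summed marker levels, as multiples of the 75th percentile, ranged from 1.85 to 1.96 in CT26 and from 3.79 to 4.06 in CT26-FL3 for epithelium (12 markers), from 9.65 to 10.2 and from 4.14 to 4.59 for macrophages (11 markers), and from 249 to 291 and from 253 to 274 for fibroblasts (11 markers). For hepatocytes (9 markers) they were 0.208 to 0.262 and 0.248 to 0.264, for endothelium (9) 0.541 to 0.592 and 0.654 to 0.721, and for lymphocytes (9) 0.238 to 0.292 and 0.484 to 0.539. The part of these differences in the results above was not tested.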

How the data were processed

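Per the labels' protocols, 500 ng of total RNA per sample received a Cy3 label for 1-colour Agilent arrays, 4 per line. The authors deposited 1 table per array with a background-subtracted intensity, a local background and a standard deviation for each spot, and a second table of log2 values centred per probe, used as an alternative because its exact normalization is unknown. The submitters' processing notes list Agilent Feature Extraction without a version. The export lacks Feature Extraction's own columns, so the deposited intensity was used, with a detection limit per array of 2.6 times the median standard deviation of its 153 negative controls (16.9 to 23.2 units). No saturation flag was used here, so saturated spots could not be marked.

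Controls (1639 of 45018 spots) and spots marked as failed, 3 to 76 per array, were removed, and the 75th percentile of log2 intensity (808 to 1151 units before the logarithm) was subtracted from each array. Probes above the limit on at least 4 of 8 arrays were kept (23068 of 41174, with 52.8 to 58.2% above it on an array), and each gene was represented by its brightest kept probe. Of the 137 member probes, 127 were named by the platform symbol and 10 by the array's name alone. Symbols were updated through gene identifiers in a RefSeq table for 32524 probes. The comparison used limma 3.58.1 (R 4.3.3) with lmFit, eBayes and no block, and two-sided p-values were adjusted by Benjamini-Hochberg over 15097 features, after a test on simulated data. The number of arrays limits the precision. Arrays of 1 line correlated at 0.996 to 0.998 across features and arrays of different lines at 0.982 to 0.984. The members, the related lists and the promoter letters were chosen with earlier results of these data known. Named members were the largest rises and falls, up to 15 each, the isoform sets, core subunits, and every member of complexes II and III. For each related list up to 3 genes with the largest change among those that passed were named, and further members are given as examples. Some values are not reported here. Replicate numbers come from the sample names, since those in the titles run from 2 to 5 for CT26-FL3. Deviations of same-numbered samples from their line means correlated at 0.12, 0.11, 0.01 and 0.16, which does not pair them. In all, 23 alternatives were tried, of which cyclic loess was added after seeing the data.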

Additional observations from a re-analysis of the deposited data

Results flagged for a closer look

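In 10 of 176 groups of 4 values, 1 sample lay apart from the other 3 by more than Dixon's critical ratio for 4 values. Chance flags about 1 in 20 groups. In CT26 replicate 1, Ndufa1 was at a level of 5.382 against 5.34 in each of the other 3. CT26 replicate 2 was apart for Ndufa8 (4.716, others 4.78 to 4.79) and Dmac2l (-0.8678, others -0.98 to -0.97). CT26 replicate 3 was low for Ndufb6 (4.005, others 4.20 to 4.22), Ndufa9 (4.544, others 4.66 to 4.67) and Cox7a2l (3.507, others 3.59 to 3.61), and CT26 replicate 4 was low for Ndufa6 (3.306, others 3.38 to 3.39). In CT26-FL3, Sdha was high in replicate 1 (2.406, others 2.34 to 2.35), Uqcrh was high in replicate 3 (6.111, others 5.97 to 5.99) and Cox6a1 was low in replicate 4 (7.815, others 7.98). Without CT26 replicate 3, the smallest called rise, that of Ndufa9, was 0.13 and no longer passed (limma adjusted p = 0.109).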

How the results depend on the processing

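The median change of the members stayed between -0.18 and -0.12 in all 23 alternatives, and 44 of the 45 members past the threshold kept their sign in all of them. The exception was Uqcrq, which turned to 0.0072 with the mean of its kept probes. Sdha, Cox7a1, Atp5k, Atp5d and Dmac2l passed in every alternative, and 18 of the 45 (these 5 included) passed in every alternative other than the fits within a single array set. Counts past the threshold moved more. With the median of each array subtracted, 25 members were lower, beside 19.9% of all features. Complex I assembly factors, complex III and complex V then had 1, 2 and 7 calls. Without the filter on dim probes, assembly factors, complex II and complex V had 1, 1 and 7, and cyclic loess left 1 assembly factor. Within replicates 1 and 2 (array set 1) there were 14 calls, 10 lower and 4 higher, with 5 in complex I, 0 in assembly factors, 0 in complex III, 3 in complex IV and 3 in complex V. Within replicates 3 and 4 (set 2) there were 6, 3 lower and 3 higher, with 0 in complex I, 1 in assembly factors, 1 in complex II, 0 in complex III, 1 in complex IV and 2 in complex V. These are limma fits on 2 samples per line, and 32 and 24 members had an unadjusted p under 0.05 in sets 1 and 2. All features were called lower and higher in 13.5% and 14.4% within set 1, and in 13.5% and 14.2% within set 2. The replicate block by sample-name numbers left 34 lower, 5 higher and 1 assembly factor. The replicate block by title numbers, with 3 shared numbers, left 19 calls, 13 of them lower. In that fit 17.2% of all features were lower and 19.7% higher. The 19 calls included 5 in complex I, 5 in complex V, and 1 each in assembly factors, complex II and complex III. Of the 4 CT26 samples, 1 correlated best with its own number. Leaving out 1 sample at a time gave 36 to 46 calls in all, 30 to 40 lower and 6 to 9 higher, with 11 to 15 in complex I, 1 to 3 in assembly factors, 3 in complex II, 5 to 6 in complex III, 6 to 9 in complex IV and 8 to 13 in complex V. The fits within a set and without a sample use fewer samples, and the cause of the other shifts was not tested. With 4 arrays per line the smaller changes lie close to the threshold, and 4 of the 27 genes with several kept probes had probes that differ in sign, none of them passing in opposite directions.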
